A study of Mus musculus with 27 samples.

Results

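DNA methylation was examined in a 1 Mb window of proximal mouse chromosome 7, chr7:7000001-8000000 in GRCm38, in liver hepatocytes. The window was chosen by an earlier result on these data, the share of its positions that differed among strains, so strain levels, calls and adjusted p-values within it come from the values that chose it and are given as a description that supports nothing further. Its members were the positions listed in at least 1 sample, 1359 of the 5240546 positions listed over the series. Levels were compared at the 268 positions listed in at least 2 of 3 samples of every strain. The 27 samples came from female mice aged 12 weeks, 3 samples of each of 9 inbred strains. Laboratory strains were C57BL/6J, DBA/2J, A/J, 129S1/SvImJ, NOD/ShiLtJ and NZO/HlLtJ, and strains derived from wild mice were WSB/EiJ, PWK/PhJ and CAST/EiJ. No treatment separated the groups and no strain served as a control. The study set out to relate genetic differences between strains to epigenetic marks and gene expression, of which only DNA methylation is analysed here. An inbred strain is close to 1 genotype, so the samples of a strain share their sequence. The labels number the 3 samples of a strain as biological replicates.

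Reduced representation bisulfite sequencing reads the parts of the genome near CCGG, the site cut by the enzyme MspI, and reports for each cytosine of a CpG dinucleotide the share of reads in which it was protected from bisulfite conversion by a methyl group. CpG-rich starts of genes that are used in a tissue are as a rule unmethylated, while CpGs elsewhere are mostly methylated. The window holds genes of the Krüppel-type zinc finger family, DNA-binding proteins many of which carry a KRAB domain that recruits silencing proteins to transposable elements. Beyond them lies Vmn2r29, the first protein-coding gene of a cluster of type 2 vomeronasal receptors in the window. These are pheromone receptors of sensory neurons in the vomeronasal organ and have no known use in hepatocytes. Clcn4, which encodes an intracellular chloride/proton exchanger of the CLC family, lies between Vmn2r29 and the other protein-coding receptors of the window. The deposited lists hold a percent methylation for each position and no read counts. The depth behind each value is therefore unknown, and no counting interval is given.

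The start of Vmn2r29 carries most of the strain differences of the window, so the promoter there is shown beside a promoter of Clcn4. A second annotated promoter of each gene is not shown. The Clcn4 promoter shown resembles that of Vmn2r29 in part, and its compared positions stayed nearly unmethylated. Both sequences are from RefSeq (GRCm38.p6), are on the minus strand, run 5′ to 3′ and span 250 bases before the annotated start and 50 bases after it. Capitals mark CpGs with at least 1 position whose level was compared among strains. The first is chr7:7278240-7278539 and the second is chr7:7299508-7299807.
Vmn2r29: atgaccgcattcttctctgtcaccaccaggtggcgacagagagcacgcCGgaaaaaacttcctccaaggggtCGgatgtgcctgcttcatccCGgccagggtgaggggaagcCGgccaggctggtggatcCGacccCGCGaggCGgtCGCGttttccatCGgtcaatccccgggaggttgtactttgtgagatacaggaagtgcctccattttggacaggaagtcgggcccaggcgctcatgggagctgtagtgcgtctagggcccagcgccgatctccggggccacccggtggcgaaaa
Clcn4: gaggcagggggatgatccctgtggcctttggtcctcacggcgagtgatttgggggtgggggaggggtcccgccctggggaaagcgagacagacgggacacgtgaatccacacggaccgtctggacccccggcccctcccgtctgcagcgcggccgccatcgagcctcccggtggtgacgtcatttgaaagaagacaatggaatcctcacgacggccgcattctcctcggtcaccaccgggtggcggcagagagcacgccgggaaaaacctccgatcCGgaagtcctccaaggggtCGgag
The Vmn2r29 promoter holds 23 CpGs and 6 CCGG sites, searched on both strands, since CCGG reads the same on each. Among all 32851 promoters of the same 300 bases, 52.8% hold at least 1 CCGG and the median number of CpGs is 7. The Clcn4 promoter holds 27 CpGs and 5 CCGG sites. The 2 promoters share unbroken runs of 17 letters (tcctccaaggggtcgga) and 15 letters (cagagagcacgccgg), in the same order and orientation. Each of these runs was found on either strand in 2 of the 32851 promoters, those of Vmn2r29 and Clcn4. The CpG of the 17-letter run lies at 7278466 and 7278467 in Vmn2r29 and at 7299511 and 7299512 in Clcn4. In Vmn2r29 the strain means at 7278466 spanned 0 to 53.4%, whereas at Clcn4 they were 0 in 8 strains and 6.67% in PWK/PhJ at 7299511, and 0 in all 9 at 7299512. How reads were assigned between sequences that resemble each other was not tested.

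Of the 268 compared positions, 109 fell below and 13 above the limits set on the mean over strains (near 0 or 100%), which left 146 for the fit. Strain was fitted as a factor over the genome with limma's moderated F test, computed by a Python implementation that was checked against limma. A call required both a Benjamini-Hochberg adjusted p below 0.05 and a spread of at least 25 points between the highest and lowest strain mean. In the window 50 of 146 positions (34.2%) were called, where 4.34% of 868252 tested positions of the genome were. This share ranked 2 of 1778 windows of 1 Mb that had 100 or more tested positions, as a consequence of how the window was picked. The next window below, from 6000001 to 7000000, had 15 calls among 497 tested positions (3.02%), and the next window above had 0 among 8. At called positions of the window the strain means spanned 37.1 to 100 points with a median of 73.4, against a median of 55.2 at called positions of the genome.

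The calls were concentrated in a short piece of DNA. The 701 bp of chr7:7277791-7278491, across the start of Vmn2r29 at 7278289, held 42 of the 50 calls among 44 tested positions. Elsewhere in the window 8 of 102 tested positions (7.84%) were called. When Vmn2r29 and 1 kb on either side were set aside, 5 of 89 (5.62%) were called. The bounds of this piece, and of the stretches below, were chosen after the values were seen: a stretch is a run of compared positions no more than 100 bp apart that holds at least 3 calls. There were 4, all in or beside Vmn2r29, named a to d from lower to higher coordinates. Because the gene lies on the minus strand, stretch d is upstream of it and stretches c, b and a are increasingly far inside. In 1 kb tiles with at least 5 compared positions, 3 of 11 tested tiles were called, where 7.75% of the tiles of the genome were. These were the tiles that begin at 7277001, 7278001 and 7132001, with strain means spanning 58.2, 51.6 and 25.1 points. The call of the last was lost without C57BL/6J (23.7 points), with a replicate block (adjusted p = 0.125, limma), and without C57BL/6J replicate 1, CAST/EiJ replicate 4 or CAST/EiJ replicate 5 (23.7, 23.4 and 25.6 points, with adjusted p of 0.0231, 0.0750 and 0.0533). It was also lost with CAST/EiJ, PWK/PhJ and WSB/EiJ, 3 wild-derived strains, left out, an alternative chosen after seeing the data (13.1 points, adjusted p = 0.542).

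Stretch b, chr7:7277791-7277842, lies 447 to 498 bp inside the gene, and all 6 of its compared positions were called. Only 2 of them, 7277829 and 7277842, were listed in all 27 samples. A sample of A/J and a sample of NOD/ShiLtJ had no value at the other 4, so the 2 sets of positions are given apart. At the 2 positions WSB/EiJ was at 100% in every sample, above all others. NOD/ShiLtJ had 90.7% ± 1.69, A/J 85.4% ± 11.9, 129S1/SvImJ 71.7% ± 6.99 and NZO/HlLtJ 68.0% ± 4.41 (SD, n = 3 each), each overlapping the next. A lower set, separate from these, held PWK/PhJ at 47.2% ± 7.70, C57BL/6J at 43.0% ± 7.44, CAST/EiJ at 36.9% ± 12.0 and DBA/2J at 25.8% ± 8.94 (SD, n = 3 each), again each overlapping the next.

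At the other 4 positions of stretch b, A/J and NOD/ShiLtJ were at 100% in both of their listed samples, WSB/EiJ had 94.9% ± 0.739 and PWK/PhJ 86.1% ± 1.70 (SD, n = 3 each). 129S1/SvImJ followed with 59.9% ± 4.44 (SD, n = 3). The lowest were DBA/2J at 44.7% ± 15.8, CAST/EiJ at 41.5% ± 6.81 and NZO/HlLtJ at 39.2% ± 6.51 (SD, n = 3 each), with C57BL/6J at 43.2% (samples of 28.1 to 51.4%), and all 4 overlapped. The means of 129S1/SvImJ and NZO/HlLtJ include 7277811, which was at 0 in all of their samples. At the other 3 positions, 7277791, 7277817 and 7277830, the strain means were 78.8, 75.2 and 85.5% in 129S1/SvImJ, 52.2, 49.7 and 54.8% in NZO/HlLtJ, and 82.4, 86.0 and 88.0% in PWK/PhJ. At each of these 3 positions the samples of PWK/PhJ overlapped those of 129S1/SvImJ and lay above those of NZO/HlLtJ, whereas over the 2 others PWK/PhJ was below both strains. WSB/EiJ, NOD/ShiLtJ and A/J had the highest strain means in both sets, and DBA/2J, CAST/EiJ and C57BL/6J were among the lowest in both.

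Stretch c, chr7:7278134-7278222, lies 67 to 155 bp inside the gene, and 19 of its 20 compared positions were called. C57BL/6J stood alone at the low end with stretch means of 33.4, 9.10 and 14.4%. DBA/2J came next with 70.1, 66.1 and 73.0%, separated from C57BL/6J but overlapping NZO/HlLtJ at 77.5, 71.4 and 81.7%. At the high end CAST/EiJ had 98.9, 94.3 and 96.5% and WSB/EiJ had 95.2, 95.3 and 95.6%, and these 2 overlapped each other and lay above the remaining 7. Between them stood 129S1/SvImJ at 89.3% ± 1.82, A/J at 85.9% ± 3.82, NOD/ShiLtJ at 84.0% ± 3.87 and PWK/PhJ at 79.8% ± 2.76 (SD, n = 3 each), with each overlapping the next. In C57BL/6J the strain mean of single positions ranged from 6.00 to 37.0%. The position of the stretch that was not called, 7278177, also had C57BL/6J lowest, at 37.0% ± 54.8 (SD, n = 3), with adjusted p = 0.319 (limma's moderated F test). The files of C57BL/6J name the mitochondrial chromosome M and those of the other 8 strains name it MT. Any difference in processing behind this cannot be told apart from strain. Without C57BL/6J the tile of stretches c and d at 7278001 was no longer called, since its strain means then spanned 22.6 points, while 44 single positions of the window were called.

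Stretch d, chr7:7278380-7278491, lies 91 to 202 bp upstream of the start and takes up all 18 compared positions of the promoter shown above, 17 of them called. Its order of strains was not that of stretch c. CAST/EiJ, which was high in stretch c, was the lowest here with stretch means of 7.41, 5.86 and 6.17%, and C57BL/6J was next at 26.3, 27.6 and 24.5%. WSB/EiJ at 32.0% ± 0.826, DBA/2J at 31.1% ± 1.76 and PWK/PhJ at 36.9% ± 11.0 (SD, n = 3 each) overlapped. NZO/HlLtJ had 41.1% ± 1.49 (SD, n = 3), overlapping PWK/PhJ. The highest were NOD/ShiLtJ at 53.8% ± 2.90, A/J at 55.5% ± 13.9 with samples of 39.7 to 65.5% and 129S1/SvImJ at 57.3% ± 6.14 (SD, n = 3 each), which overlapped each other. The nearest compared positions of the 2 stretches lay 158 bp apart, and in each a different strain stood alone at the low end.

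**Figure D1:**
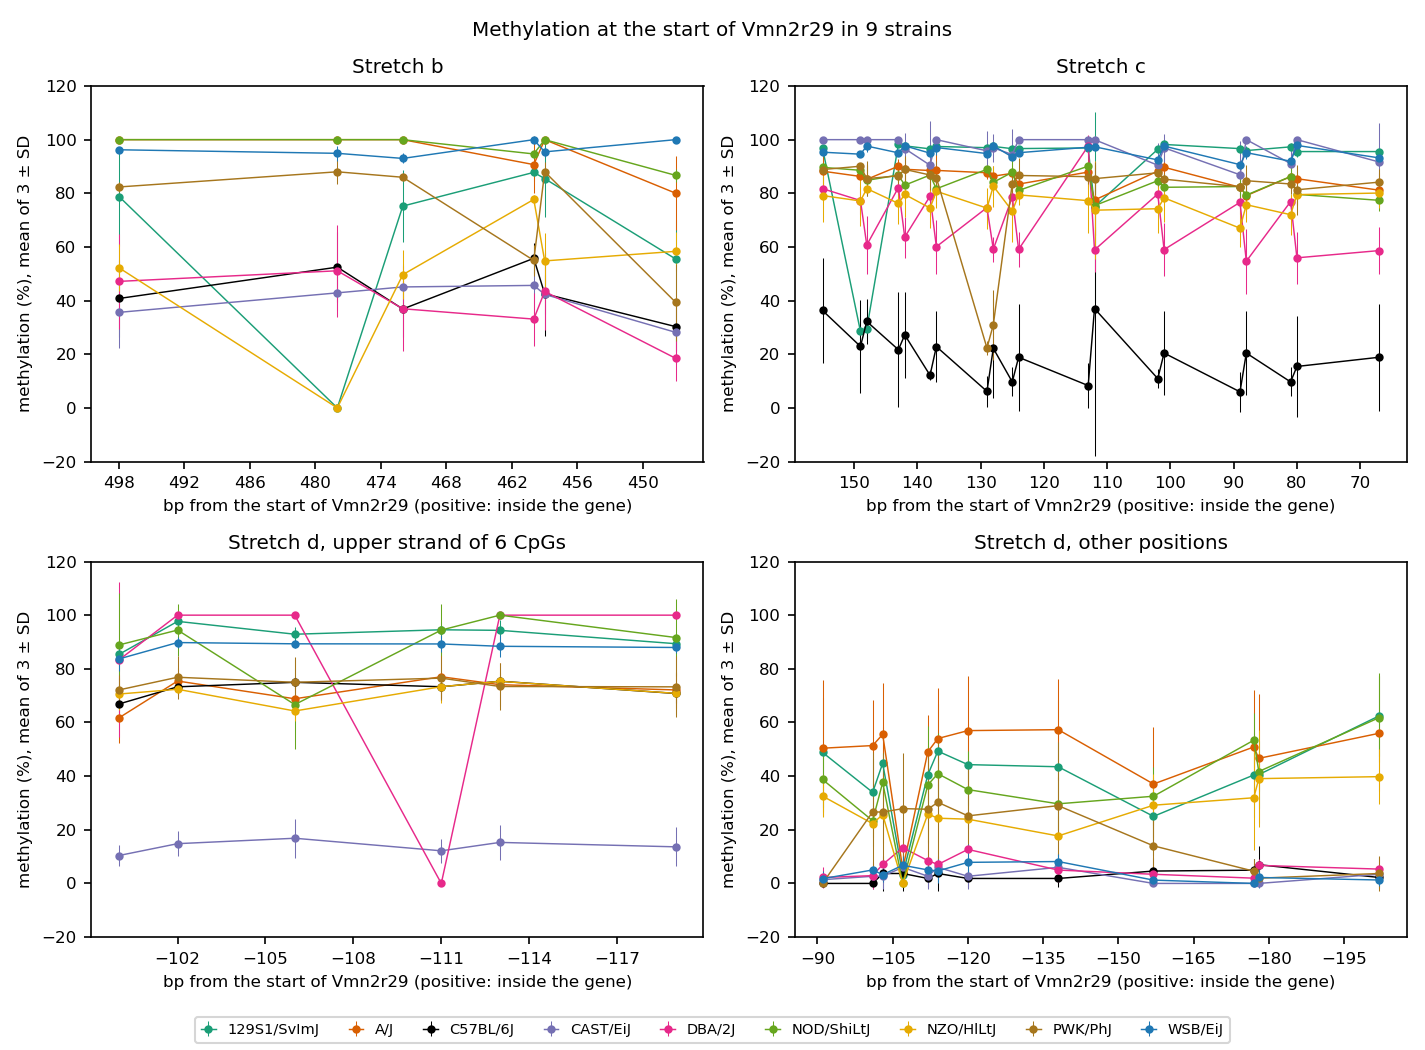
Percent methylation (y axis) at each compared position of stretches b, c and d. The x axis is its distance in bp from the annotated start of Vmn2r29 (positive inside the gene). Stretch d is split into the upper strand of 6 CpGs and its other positions, which are of both strands. Points are means of up to 3 samples, bars are SDs and colours are strains. C57BL/6J lies between 6.00 and 37.0% throughout stretch c, and CAST/EiJ stays low on the upper strand of stretch d, where the other strains are high except at single positions.

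The 2 strands of stretch d were methylated to different degrees. The promoter letters tell which cytosine belongs to which strand, and 6 CpGs between 7278389 and 7278409 had both strands compared. On the upper strand, the C of the plus strand, the mean over 6 positions ran from 71.1% ± 2.88 in NZO/HlLtJ to 92.4% ± 2.40 in 129S1/SvImJ (SD, n = 3 each) in 8 strains. CAST/EiJ had 17.2, 16.7 and 7.69% there and lay below all samples of every other strain. On the lower strand, the mean over 7 positions was at most 8.70% in the 12 samples of WSB/EiJ, CAST/EiJ, DBA/2J and C57BL/6J. It ran from 10.8 to 58.3% with a median of 28.3% in the 15 samples of A/J, 129S1/SvImJ, NOD/ShiLtJ, NZO/HlLtJ and PWK/PhJ. The 3 samples of PWK/PhJ were far apart here at 15.2, 44.4 and 10.8%.

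The mean over the 6 upper positions exceeded that over the 7 lower ones in 27 of 27 samples, by 0.240 to 85.2 points with a median of 53.5. The lower mean includes 7278380, whose upper-strand partner was not compared. Within the 6 matched CpGs, taken 1 by 1, the upper strand was above in 23 to 27 of the 27 samples. The difference between the 2 means was 83.2 ± 3.34 points in WSB/EiJ, 72.9 ± 5.26 in DBA/2J and 70.3 ± 4.64 in C57BL/6J, against 25.4 ± 10.2 in A/J and 10.4 ± 8.89 in CAST/EiJ (SD, n = 3 each). In stretch c the 9 CpGs with both strands compared differed by at most 6.24 points between strands on average over the samples. This average runs over all strains, and single strains differed more. In DBA/2J the 9 CpGs had 80.3% ± 3.88 on the upper and 59.0% ± 6.85 on the lower strand (SD, n = 3 each). In WSB/EiJ they had 93.9% ± 0.325 and 97.0% ± 0.586 (SD, n = 3 each). The samples of the 2 strands did not overlap in these 2 strains and overlapped in the others. In stretch d the CpG at 7278466 and 7278467 differed by 0.247 points on average. Over the genome the 2 strands of a CpG differed by at least 25 points on average at 1293 of 306394 CpGs (0.422%) with at least 1 strand in the fit, and in the window at 7 of 36 (19.4%). The 7 in the window are the 6 CpGs of stretch d and the CpG at 7355016. The strand was not used in choosing the window, but these CpGs were picked with their values known. When both strands of a CpG were averaged first, 36 of 120 units of the window were called, where 5.38% of such units of the genome were.

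**Figure D2:**
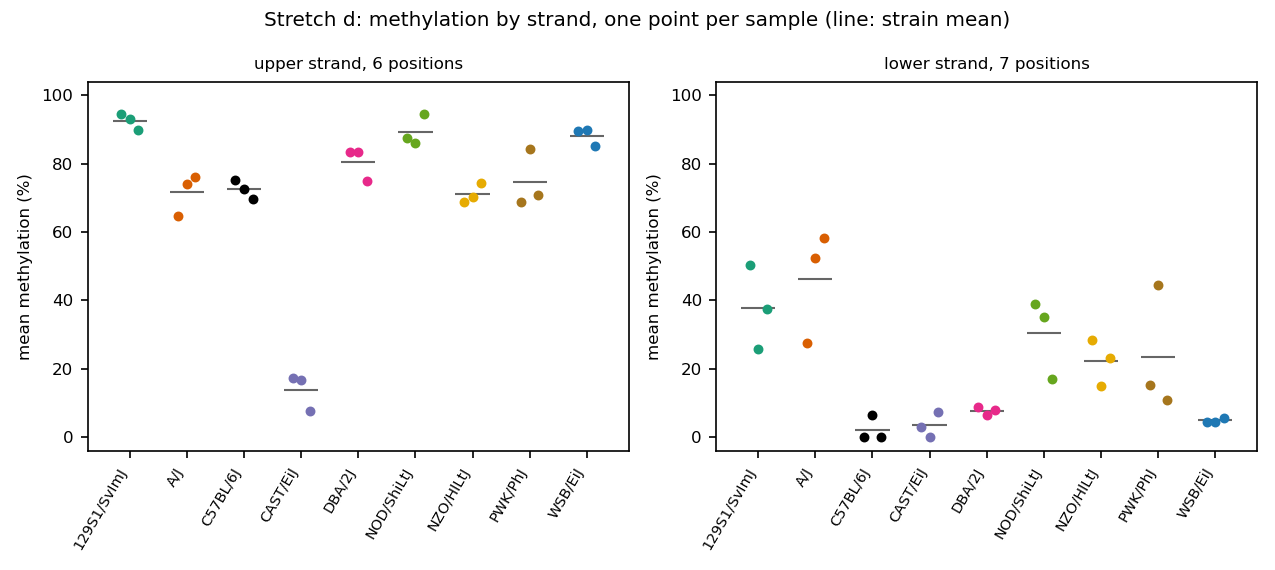
Mean percent methylation (y axis) over 6 upper-strand and 7 lower-strand positions of stretch d, upstream of Vmn2r29, in each of 27 samples by strain (x axis), with a line at the strain mean. The upper strand is high in every strain but CAST/EiJ, and the lower strand is at or under 8.70% in the samples of C57BL/6J, CAST/EiJ, DBA/2J and WSB/EiJ.

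Within these stretches single positions left the level of their neighbours in single strains. A strain mean that differed by at least 50 points from the median of the other positions of its stretch, taken by strand for the 6 CpGs of stretch d, occurred 12 times at 9 positions in 5 strains. In 12 of 12 cases the position was lower than its neighbours. In these cases the median of the other positions was 54.8 to 100%, so a departure of 50 points could only be downward. Where a strain was low, as C57BL/6J in stretch c, a higher position could have met the rule, and none did. The direction is given as a description. At 7277811 in stretch b all 3 samples of 129S1/SvImJ and all 3 of NZO/HlLtJ were at 0, while the other positions of the stretch had strain means of 55.5 to 87.8% and 49.7 to 77.7% in these strains. The same position was at 100% in both listed samples of A/J and both of NOD/ShiLtJ. At 7278400 on the upper strand of stretch d all 3 samples of DBA/2J were at 0, with 83.3 to 100% at the other 5 upper-strand positions. On both strands of the CpG at 7278160 and 7278161 in stretch c PWK/PhJ had 22.3% ± 2.70 and 31.0% ± 13.1 (SD, n = 3 each), with a median of 85.5% over the other positions. On both strands of the CpG at 7278140 and 7278141 129S1/SvImJ had 28.5% ± 4.73 and 29.5% ± 3.51 (SD, n = 3 each), with a median of 96.7% over the others.

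Stretch a, chr7:7272109-7272309, lies inside Vmn2r29, with its called positions 5987 to 6149 bp from the start, and 3 of its 8 tested positions were called. Its mean over positions was between 70.7 and 91.8% in all strains, and neighbours in the order overlapped throughout. The calls came from single positions with highly methylated neighbours. At 7272202 the 3 C57BL/6J samples were at 0 and the PWK/PhJ samples at 14.3, 0 and 6.67%, while the remaining 7 had strain means of 80.9 to 97.0%. At 7272140 the same 2 strains were low, C57BL/6J at 57.1, 33.3 and 33.3% and PWK/PhJ at 23.7, 32.1 and 30.8%. Strain means elsewhere were 79.0 to 95.7%. At 7272302 a different set was low, as the next paragraph gives. C57BL/6J and PWK/PhJ, which shared 2 low positions here, did not share their level in stretch c.

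A set of 4 strains, 129S1/SvImJ, A/J, NOD/ShiLtJ and NZO/HlLtJ, parted from the other 5 at several places in the window. The set was recognised after the values were seen. At 7 of the 50 called positions the 12 samples of these strains did not overlap the 15 samples of the others, which is 4.79% of the tested positions of the window, where 0.00369% of tested positions of the genome (32 in all) met the same rule. The 7 positions lie at 3 places. These are 7209616 and 7209776 in Zfp772, 7272302 inside Vmn2r29, and 7278380, 7278466, 7278467 and 7278491 upstream of Vmn2r29. Of the last, 7278466 and 7278467 belong to the same CpG. The 4 strains were above the others at 6 of them and below at 7272302.

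Zfp772, a zinc finger gene on the minus strand (chr7:7202122-7209998), showed this division near its start. At 7209616, 382 bp inside the gene, the 12 samples of the 4 strains ran from 50 to 78.7% with a median of 66.6%, and the 15 others from 0 to 25% with a median of 4.76%. At 7209776, 222 bp inside, the 4 strains ran from 47.9 to 72.5% with a median of 61.7%, and the others from 0 to 11.1% with a median of 0. The CpG between them, at 7209630 and 7209631, was low in all 9 strains, with strain means of at most 4.17% and 7.69% on its 2 strands. The difference in Zfp772 was therefore at the 2 outer positions and not at the CpG between them. At 7272302 in Vmn2r29 the 4 strains ran from 34.8 to 63.3% with a median of 39.4%, and the others from 70 to 100% with a median of 91.7%. Over the last 5 positions of stretch d, from 7278427 to 7278491, the 4 strains ran from 20.8 to 63.2% with a median of 43.0%, and the others from 1.11 to 15.2% with a median of 3.44%.

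**Figure D3:**
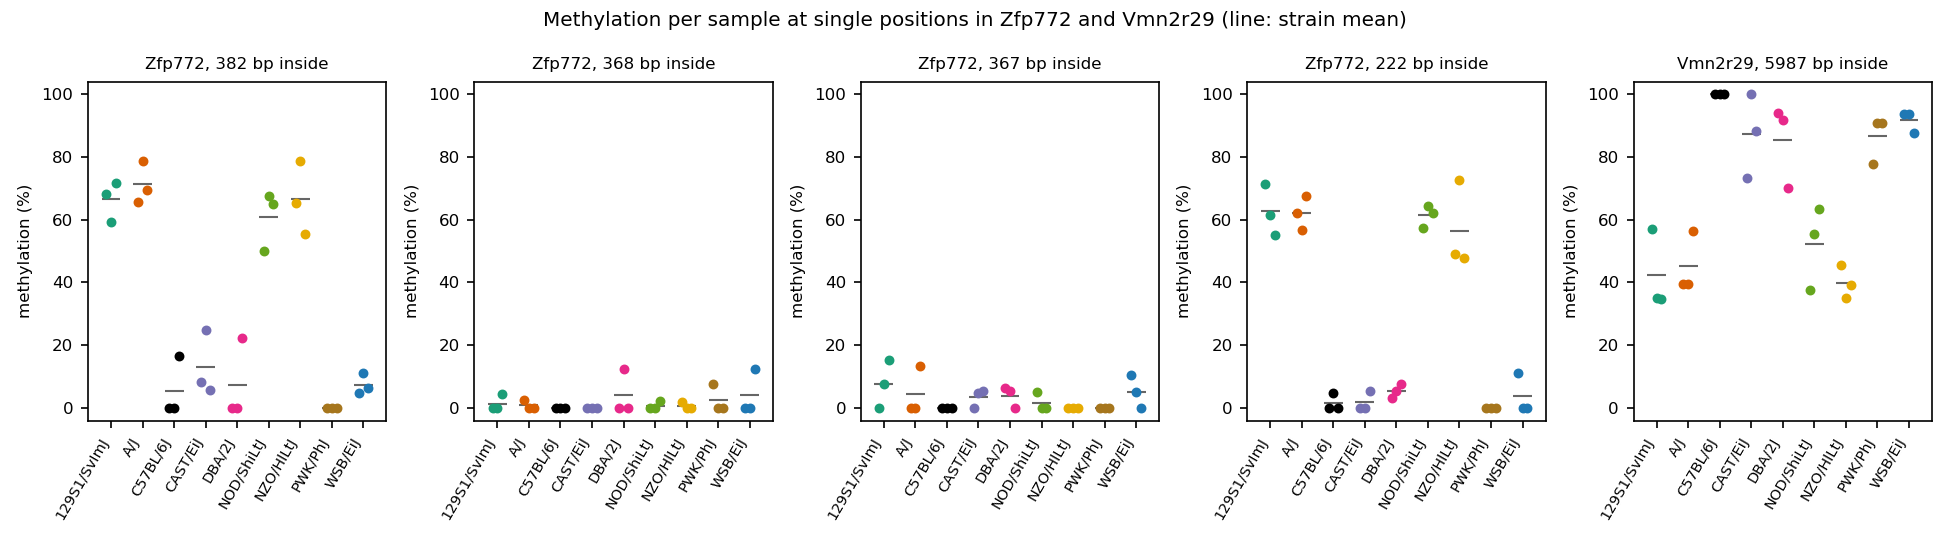
Percent methylation (y axis) in each listed sample at 4 positions of Zfp772 and 1 position inside Vmn2r29, with the distance of each from the gene's start, by strain (x axis), with a line at the strain mean. The samples of 129S1/SvImJ, A/J, NOD/ShiLtJ and NZO/HlLtJ lie apart from the others at 3 positions and with them at the CpG in the middle of the Zfp772 set.

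The list of zinc finger genes has 4 members here, Zfp954, Zfp773, Zfp418 and Zfp772, in which 3 of 13 tested positions were called, 2 in Zfp772 and 1 in Zfp773, beside 34.2% of tested positions over the window and 4.34% over the genome. Zfp418 had 8 compared positions near its start, nearly unmethylated in every strain, with strain means over the 8 positions of 0 to 1.88%. When both strands were averaged first, a further position deep in the gene, 7181868, could be compared at 91.7 to 100%, and the mean over the 6 units of the gene became 12.2 to 17.9%. In Zfp773 the mean over 5 positions ran from 59.7% ± 2.92 in CAST/EiJ to 84.8% ± 4.85 in C57BL/6J (SD, n = 3 each). Its called position, 7132926, had 31.6, 40.0 and 31.8% in CAST/EiJ and strain means of 58.2 to 84.4% in the others. That call was lost without any of the 3 CAST/EiJ samples in turn, with adjusted p from limma's moderated F test of 0.0869 to 0.130, with each of 10 other samples left out, with a replicate block (adjusted p = 0.331) with an offset of 1 point in the transformation (adjusted p = 0.181) and with no filter on the mean (adjusted p = 0.0501). It was also lost under 2 alternatives chosen after seeing the data, with the wild-derived CAST/EiJ, PWK/PhJ and WSB/EiJ left out (strain means spanning 16.0 points against 49.9, adjusted p = 0.871) and with 129S1/SvImJ, A/J, NOD/ShiLtJ and NZO/HlLtJ left out (adjusted p = 0.322). Inside Zfp772, away from its start, strain means over the tile from 7203001 spanned 4.29 points and the tile was not called.

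Clcn4 gave the densest data of the window. Of its 254 listed positions 121 were compared, 16 of these were tested by limma's moderated F test and 0 were called, where 4.34% of tested positions of the genome were, so 16 positions are too few to set it apart. Over 100 compared positions within 1 kb of its 2 annotated promoters the strain means ran from 0.287% ± 0.186 in NOD/ShiLtJ to 1.33% ± 0.643 in 129S1/SvImJ (SD, n = 3 each), and the highest single sample had 2.29%. Its tile from 7296001, inside the gene, was methylated in all strains, with a range of strain means of 4.80 points. So the compared positions around the 2 promoters of Clcn4 were nearly unmethylated. Those at the start of Vmn2r29 were methylated to a degree that differed by strain. The 2 genes were not measured alike, since in the Clcn4 promoter shown above 3 of 29 listed positions were compared. The other Clcn4 promoter, chr7:7298787-7299086, held 0 listed positions, so only positions around it were measured. No compared position lay within 1 kb of either end of Clcn4 (chr7:7282309-7300916).

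Beyond Clcn4 the receptor cluster gave few values. The list of Vmn2r genes has 14 members in the window, of which 5 had a listed position and 2 a compared one. Among the 8 protein-coding members 4 had a listed position and 1 a compared one. Vmn2r29 held 39 of the 41 compared positions in the list and all 28 of its calls. These are 28 of 41 tested positions of the list, where 34.2% were called over the window and 4.34% over the genome, and nothing is read from this count because the window was chosen by these calls. Promoters in the RefSeq table matched 15 of the 35 genes of the window, and 7 Vmn2r genes beyond Vmn2r29 had at most 2 CpGs and no CCGG in their promoters. A second annotated promoter of Vmn2r29, chr7:7247279-7247578, likewise held 0 CpGs, 0 CCGG sites and 0 listed positions. The remaining calls of the window lay outside these genes. At 7359218, within 1 kb of the non-coding gene Gm3912, CAST/EiJ had 43.9, 31.9 and 27.9% and the strain means of the others ran from 81.7 to 98.1%. At 7122274, near Zfp954, NOD/ShiLtJ had 75.0 and 0% in its 2 listed samples and the strain means of the others ran from 92.6 to 100%, so this call rests on 2 samples that differ. The other 4 compared positions around the start of Zfp954 were nearly unmethylated, with strain means of at most 5.56%. The pseudogene Gm3530 was highly methylated in every strain, with means over 6 positions of 89.4 to 98.8% and 0 calls, and around Gm3912 the means over 6 positions were 77.4 to 93.9%.

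The number of positions listed also differed by strain. This number was not the value that chose the window, but listing entered the choice, since calls were made over positions listed in every strain and members are defined by listing. Of the 1359 members, 219 (16.1%) were listed in all 27 samples, against 32.3% over the series, and 19.7% were compared, against 37.2%. The number listed in the window was 700, 712 and 733 in DBA/2J, 729, 658 and 704 in PWK/PhJ, 646, 670 and 679 in C57BL/6J, and 680, 660 and 622 in WSB/EiJ. It was 570, 609 and 616 in CAST/EiJ, 594, 559 and 563 in NOD/ShiLtJ, 589, 549 and 553 in NZO/HlLtJ, 552, 537 and 560 in A/J, and 526, 561 and 541 in 129S1/SvImJ. The 4 strains named above had the lowest strain means, from 543 to 572, and their samples overlapped those of CAST/EiJ and no others. Since listing entered the choice, these counts are given as a description with no p. The F statistic over strains was 25.4 for the counts and 36.3 for the counts scaled to the sample's autosomal positions. Over the 2272 autosomal windows of 1 Mb with at least 500 listed positions the median F was 4.68 and 6.54, and the window ranked 77 and 93. Per 1000000 autosomal positions the strain means ran from 189 in 129S1/SvImJ to 237 in DBA/2J. The depth behind the lists is unknown, and its part in these counts was not tested.

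**Figure D4:**
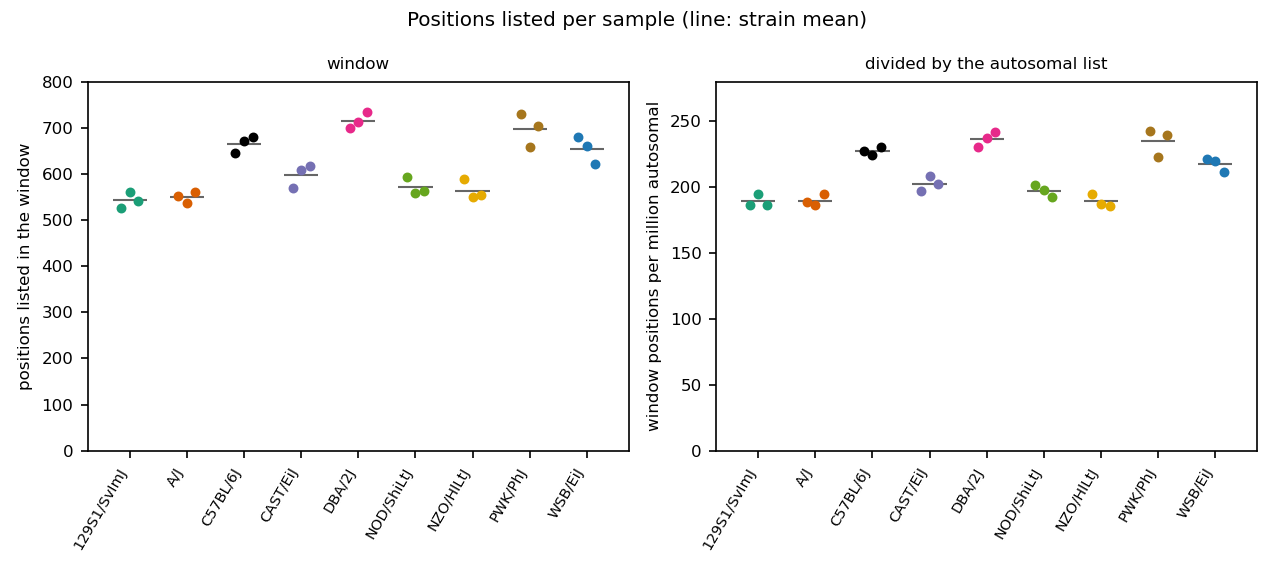
Positions listed in the window (left y axis) and the same per 1000000 positions listed on the autosomes (right y axis) in each of 27 samples by strain (x axis), with a line at the strain mean. 129S1/SvImJ, A/J, NOD/ShiLtJ and NZO/HlLtJ have the lowest means in both panels.

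The same 4 strains were alike in which positions they listed. At 297 positions of the window each strain listed the position in all or none of its samples and strains differed. At 258 of these (86.9%) the 4 strains were alike, either all listing it or none. Among all sets of 4 strains this set came first, and the next reached 62.3%. Over the autosomes the same set was alike at 76.4% and also came first, with the next at 76.2%. In the window 186 positions were listed by none of the 4 while at least 1 other strain listed them, which is 62.6% of those that differed by strain, against 42.5% over the autosomes. At 15 positions all 5 other strains listed and none of these 4 did, and at 10 positions the reverse held. Over the autosomes such positions numbered 514 and 410 among 705092 that differed by strain. The strains most often listing a position alone were PWK/PhJ at 45 positions and CAST/EiJ at 28, with no share over the autosomes given. Over the autosomes pairs with either of these strains differed in listing at 18.4 to 20.6% of positions, and other pairs at up to 9.52%. The counts are therefore not read as particular to the window.

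The largest listing difference between pairs was 40.6%, for CAST/EiJ and NZO/HlLtJ. Each strain outside the set of 4 stood far from it, with pairs from 29.6% (WSB/EiJ and NOD/ShiLtJ) upward. DBA/2J is given as an example. Of 586 positions listed in all 3 samples of DBA/2J, 197 (33.6%) were listed in no sample of A/J, against 3.61% over the autosomes. Of 541 positions listed in C57BL/6J, 11 (2.03%) were absent from DBA/2J, against 4.10% over the autosomes. In the other direction 24 of 586 (4.10%) were absent, against 3.82%, so only this share was near the general level. Taken both ways the pair differed at 5.52% of positions, against 7.15% over the autosomes. The listing of these 2 strains stood out in the 10 kb from 7070001, which has no gene in the RefSeq table and held 121 listed positions. Of these, C57BL/6J listed 55 and DBA/2J 68 in all 3 samples, and the other 7 strains listed 1 to 23. In the 10 kb from 7760001, 10 positions were listed in all samples of C57BL/6J, CAST/EiJ, DBA/2J, PWK/PhJ and WSB/EiJ and none in all samples of any of the 4.

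The Vmn2r29 promoter also showed listing by strain at single positions. The positions 7278414 and 7278415, where the reference has no CpG, were listed in all samples of 129S1/SvImJ, DBA/2J, NOD/ShiLtJ and WSB/EiJ and in no sample of the other 5 strains. The CpG positions 7278267 and 7278270 were listed in all samples of 129S1/SvImJ, A/J, CAST/EiJ, DBA/2J and PWK/PhJ. Each was listed in 20 samples in all, so some samples of the remaining strains listed them too. Over all RefSeq promoters, the share of positions listed in all 3 samples of a strain that had no CpG in the reference was 0.0466% in C57BL/6J, whose sequence is the reference, 0.458 to 0.624% in 6 strains, and 1.53% and 1.51% in CAST/EiJ and PWK/PhJ. Strain genomes were not used here, so the part of sequence variants in the levels and the listing was not tested.

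Pairs of strains were set side by side by level and by listing. Over the 268 compared positions the mean absolute difference of strain means was 4.35 to 6.99 points for the 6 pairs within the set of 4 and 6.48 to 13.8 points for the other 30 pairs, so the ranges overlapped. Over the autosomes the ranges were 3.93 to 4.22 and 3.87 to 4.92 points. The widest pair in the window was 129S1/SvImJ with C57BL/6J at 13.8 points, and the 4 widest pairs all included C57BL/6J. The share of positions listed in all samples of one strain and none of the other was 7.34 to 10.5% within the set, against 5.27 to 6.33% over the autosomes. In the other pairs it was 5.52 to 40.6%, against 6.23 to 20.6%, the lowest in the window being C57BL/6J with DBA/2J. That pair, closest in listing, ranked 25 of 36 in level, with 9.26 points. Across the 36 pairs, which share strains and are not independent, the level and listing differences had a Pearson r of 0.491 and a Spearman rho of 0.595, given as a description.

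**Figure D5:**
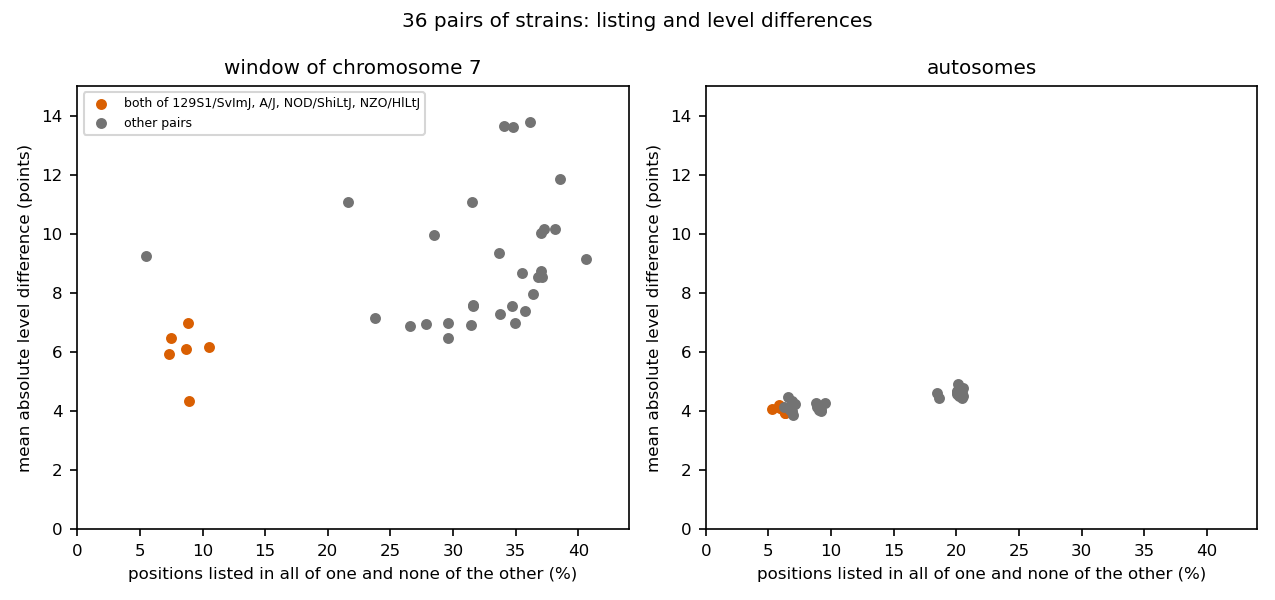
Mean absolute difference of strain means in percentage points (y axis) against the percent of positions listed in all samples of one strain and none of the other (x axis) for 36 pairs of strains, in the window and over the autosomes. In the window the 6 pairs within the set of 4 strains lie at 7.34 to 10.5% and 4.35 to 6.99 points, and the pair of C57BL/6J with DBA/2J lies beside them in listing but at 9.26 points.

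Facts of the whole series bear on these values as follows. The samples listed 2904787 to 3156965 positions. Mean SDs between the samples of a strain at tested positions were 6.09 to 9.11 points in the window and 8.47 to 10.2 points over the genome. As a check of the labelled cell type, gene ends of the hepatocyte markers with compared positions (4 of 8, Apob, Apoa2, Hnf4a and Tat) had median levels of 0.658 to 26.3%, and those of the macrophage and Kupffer cell markers Adgre1 and Clec4f had 87.8 and 90.6%. The biliary markers had medians of 1.02 to 25.6%, the stellate cell markers 5.71 to 49.1% and the endothelial markers 8.68 to 89.4%. These levels thus set the hepatocyte markers apart from the macrophage and Kupffer cell markers. They did not set them apart from the biliary and stellate cell markers or from the endothelial marker Kdr (8.68%, with Pecam1 at 89.4%). The highest hepatocyte median, that of Tat, rests on 1 compared position with samples of 0 to 55%, and no compared position lay near Alb. In the next window below, the ends of the imprinted gene Peg3, of which only the paternal copy is expressed, had 0 of 11 tested positions called by limma's moderated F test and a median level of 46.5%, with samples from 27.5 to 65.4%. The ends of Zim1, Zim2 and Zim3 had 0 of 3, 0 of 2 and 1 of 30 called, where 4.34% of tested positions of the genome were called, and Zfp264 was not matched.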

How the data were processed

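Percent methylation per position was analysed in 27 samples of reduced representation bisulfite sequencing. Per the submitters' processing notes the tools were Trim Galore 0.6.3, Bowtie2 and Bismark 0.22, and the builds GRCm38 and mm10 were named without a role. Of 445686 listed positions in RefSeq promoters (GRCm38.p6), 95.8% were at a CpG, against 54.9 and 53.9% after a shift of 1 bp. The values the authors deposited are a percent per position with no counts, so the planned quasi-binomial test of counts was replaced. Percent values p were transformed to log2((p + 5)/(100 - p + 5)) and fitted with limma's moderated F test, strain as factor, over all positions listed in at least 2 of 3 samples of every strain with a mean of 2.5 to 97.5%. Calls required an adjusted p below 0.05 (Benjamini-Hochberg) and at least 25 points between extreme strain means, and 1 kb tiles with at least 5 positions were tested likewise. The test was written in Python 3.11.15 (numpy 2.4.6, scipy 1.17.1, pandas 2.3.3, matplotlib 3.10.9), tested on simulated data and checked against limma 3.58.1 in R 4.3.3, where 0 of the 704321 tested positions with a value in every sample fell on another side of the threshold; the rest of the 868252 tested positions have missing values and were not checked this way. Named were the called tiles, the position of widest range in each, and the genes or gene ends with at least 5 compared positions; the stretches and single positions beyond these were chosen after their values were seen. The window and the gene lists were chosen with earlier results of these data known. A marker gene of the leukocyte list is not reported here. A permutation test of listing counts was planned, but its p is not given because listing entered the choice of the window.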

Additional observations from a re-analysis of the deposited data

How the results depend on the processing

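The 50 calls among positions became 36 to 51 under 12 other settings and 49 to 52 when single samples were left out, all within 1.5 times. The share called moved more, from 34.2% against 4.34% over the genome to 17.9% against 1.49% with no filter on the mean and 61.2% against 9.72% with means of 10 to 90%, since the filter sets how many positions are tested. The genome share was 0.995% without the 3 strains derived from wild mice, with 29.1% in the window. The lowest, 36, came from averaging both strands and from leaving out the set of 4 strains, an alternative chosen after seeing the data, as was leaving out the 3 strains derived from wild mice, with 43. The 3 called tiles became 5 with a minimum range of 10 points, 1 with at least 10 positions a tile and 1 without C57BL/6J, and 2 to 3 when single samples were left out. With a replicate block the counts were 45 positions and 2 tiles. For listing no block was fitted, and the mean of the samples with the same replicate number was subtracted, which gave an F of 12.4. Strains differ in which numbers they hold, so this subtraction also takes out part of the strain differences. Same-numbered samples had a mean correlation of deviations of 0.000415, and 0 of 76 pairs exceeded 0.1, so the numbers were not taken as pairs. F for listing was 21.9 to 32.0 when single samples were left out. Strain levels of named tiles and genes were each compared under 2 other settings, and both the tile at 7132001 and Zfp773, which hold the same positions, were counted. Of 162 such comparisons, 59 moved by over 1 SD with positions listed in all 27 samples or with both strands averaged. With the former, PWK/PhJ at stretch b fell from 73.1 to 47.2%, below 129S1/SvImJ (63.8 to 71.7%) and NZO/HlLtJ (48.8 to 68.0%), so the order of strains changed. With the latter, Zfp418 rose to 12.2 to 17.9%, as a methylated position entered its mean. Depth is unknown, so low coverage behind single values such as 0 or 100% could not be weighed.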
